A study of Mus musculus with 9 samples.

Results

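The genes described here are 46 genes of DNA replication and cell division, followed in sorted mouse kidney cells before and after injury. They were taken by symbol from the 55385 genes of the deposited table, and all 46 were found. By known function they fall into 16 replication genes, 4 regulators of the G1/S transition and 26 mitosis genes, and the classes were kept apart throughout. All 46 passed the filter on low counts in the main fit, so no member was left out of its counts. Some alternative fits tested fewer members, as named at the end. In a dividing cell, replication genes are induced before and during S phase, when the MCM helicase is loaded at origins and nucleotides are made. Mitosis genes are induced later, in G2 and M, when cyclin B with CDK1, the spindle and the checkpoint kinases act. Tubule cells of the resting kidney seldom divide, and re-entry into the cell cycle after ischemic injury is a known part of tubule repair.

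RNA was measured in 9 libraries of cells sorted for the red fluorescent protein tdTomato, with 3 biological replicates in each of 3 groups. All mice were male, aged 9 to 12 weeks and 25 to 30 g in weight, and all carried the tdTomato reporter as R26RtdT/+ with a tamoxifen-inducible Cre recombinase. In the uninjured group (Slc34a1IRES-CreERT2/+:R26RtdT/+) tamoxifen labelled cells through Slc34a1, the gene of a proximal tubule phosphate carrier. In the Sox9 48 h and Sox9 d14 groups (Sox9IRES-CreERT2/+:R26RtdT/+) Cre was driven from Sox9, a transcription factor of injured and progenitor epithelia, and both kidneys had ischemia-reperfusion injury. The 48 h mice received tamoxifen at the injury, and their cells were collected 48 h later. The d14 mice received it on days 10 and 12, with collection on day 14. Cre driver, injury and tamoxifen schedule change together between the uninjured and the Sox9 groups and cannot be told apart. Between the Sox9 48 h and Sox9 d14 groups, time after injury and tamoxifen schedule change together and cannot be told apart either. No source used here says if a sham operation was done on the uninjured mice.

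Total counts were 31585507 to 51631204 in uninjured, 8036054 to 23794029 in 48 h and 19239354 to 30414758 in d14 libraries, and the shallowest was 48 h replicate 2. Levels are CPM, counts scaled to a common library size with TMM factors. A gene with no count in 48 h replicate 2 could still be present at up to 0.431 CPM (3 counts), and this limit covers counting error only. Sox9 was at 0.0351 to 0.635 CPM in uninjured, 7.57 to 22.1 at 48 h and 28.8 to 38.8 at d14. The proximal tubule gene Lrp2 was at 3500 to 4964 CPM in uninjured, 1054 to 2052 at 48 h and 799 to 970 at d14. Cubn followed the same order of groups, so proximal tubule RNA was present in every library. Mitochondrial transcripts took 25.1% to 29.2% of the counts in uninjured, 32.7% to 39.2% at 48 h and 15.2% to 25.2% at d14.

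Promoter sequences are shown first because the replication and the mitosis class are known to be switched on through different DNA elements. E2F factors act on replication genes at E2F sites, and the DREAM and MuvB complexes act on mitosis genes at the CHR element, often with CCAAT boxes bound by NF-Y. RefSeq promoters (GRCm38.p6, 250 bases before to 50 after the start) were matched for 37 of the 46 members: 14 replication, 2 G1/S and 21 mitosis genes. The E2F motif was searched as TTTCCCGC, TTTGGCGC, TTTCGCGC or TTTGCCGC, the CHR motif as TTTGAA or TTCGAA, and the CCAAT box as CCAAT, each on both strands. The 5 stretches below belong to genes called higher at 48 h whose motif lay before the start and outside annotated exons: the 2 replication genes with an E2F motif there and the 3 mitosis genes with a CHR motif there that had the smallest p. Mcm3 and Kif23 had smaller p than some of these, but their E2F and CHR motifs lay after the start, so they are not shown. Each is 120 bases before the start, 5′ to 3′ on the gene's strand, with motifs of the 3 kinds in capitals, and overlapping motifs run together. In Mcm5 and Mcm6 a pair of E2F matches on opposite strands overlap. The Mcm5 and Bub1b stretches were moved away from the start to hold their motif, and run from -159 to -40 and from -198 to -79. The Cdk1 stretch runs from -146 to -27 and ends where an annotated exon begins.
Mcm5, chr8:75109350-75109469, plus strand: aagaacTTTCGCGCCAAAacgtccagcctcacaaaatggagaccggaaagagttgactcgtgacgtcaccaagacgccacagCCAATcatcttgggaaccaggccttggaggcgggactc
Mcm6, chr1:128359706-128359825, minus strand: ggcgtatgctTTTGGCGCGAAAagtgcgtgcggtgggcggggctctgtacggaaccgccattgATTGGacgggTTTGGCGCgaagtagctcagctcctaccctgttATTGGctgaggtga
Bub1b, chr2:118598013-118598132, plus strand: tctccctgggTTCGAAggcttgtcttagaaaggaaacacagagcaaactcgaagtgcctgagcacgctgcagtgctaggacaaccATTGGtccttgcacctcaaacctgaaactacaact
Cdk1, chr10:69352939-69353058, minus strand: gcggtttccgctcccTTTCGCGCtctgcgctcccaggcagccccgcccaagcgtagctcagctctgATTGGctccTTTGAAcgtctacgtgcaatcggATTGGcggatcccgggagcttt
Kif11, chr19:37376262-37376381, plus strand: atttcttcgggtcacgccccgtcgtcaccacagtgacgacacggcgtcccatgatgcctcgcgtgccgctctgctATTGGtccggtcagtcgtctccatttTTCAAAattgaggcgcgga

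The E2F motif was in 7 of 14 replication promoters (50%), in 1 of 21 mitosis promoters (4.76%, Cdk1) and in 3.87% of the 11402 promoters of tested genes. The 7 were those of Mcm3, Mcm5, Mcm6, Mcm7, Cdc6, Cdt1 and Dtl. The CHR motif was in 16 of 21 mitosis promoters (76.2%), 3 of 14 replication promoters (21.4%) and 14.1% of tested genes. Within 50 bases of the start it was in 15 of 21 mitosis promoters (71.4%) against 3.43% of tested genes. CCAAT was common to the classes, in 11 of 14 replication promoters (78.6%), 18 of 21 mitosis promoters (85.7%) and 38.5% of tested genes. These shares describe letters in a fixed window and are no test of binding.

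At 48 h, 14 of the 16 replication genes and 19 of the 26 mitosis genes rose against uninjured cells, with 2 of the 4 G1/S regulators, and no member fell. The 35 members called higher compare with 17.4% of the 15519 genes tested (edgeR's quasi-likelihood F-test, Benjamini-Hochberg adjusted p under 0.05). At an unadjusted p under 0.05, 44 members were higher and 0 lower, and DESeq2 and limma voom also called 0 lower. The median log2 fold change was 1.93 for replication genes and 3.68 for mitosis genes, against 0.02 for all genes tested. Without 48 h replicate 1 these medians were 1.98 and 2.25, so most of the gap between the classes went with that library. All 3 libraries at 48 h lay above all 3 uninjured libraries for 14 replication genes but for only 10 mitosis genes, against 21.5% of all genes. In sorted bulk RNA, more dividing cells and more RNA of these genes per cell cannot be told apart. The map of all members by library shows both facts, with a replication block that is red in all 48 h columns and a mitosis block that is darkest in replicate 1 and mixed in replicate 2.

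**Figure D1:**
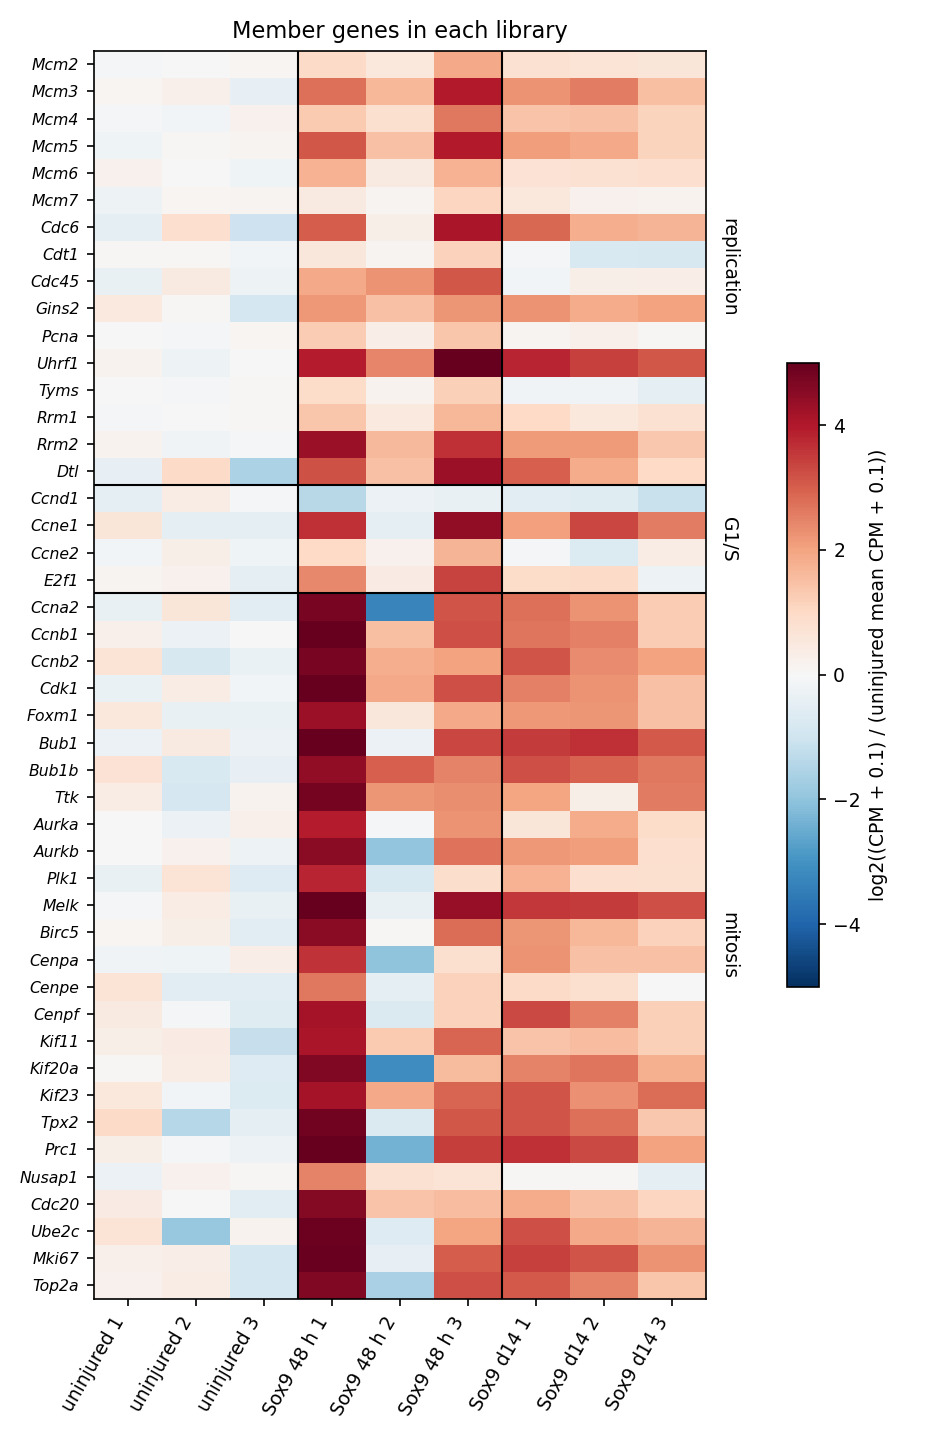
Each row is a member and each column a library, and colour gives log2 of (CPM + 0.1) over (uninjured mean CPM + 0.1), capped at 5 in both directions; black lines part the 3 groups and the 3 classes. The 26 mitosis genes were all highest at 48 h in replicate 1, and 7 of them had no counts in 48 h replicate 2.

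Among genes of origin licensing and the replicative helicase, 8 of 10 rose at 48 h, against 17.4% of all genes tested. Mcm3, a subunit of the MCM helicase, was at 1.61, 1.79 and 1.09 CPM in the uninjured libraries and at 10.7, 4.89 and 24.9 CPM in 48 h replicates 1, 2 and 3. Its groups did not overlap, and its log2 fold change was 3.20 ± 0.54 (SE, adjusted p = 0.00168, edgeR). Mcm5 had 2.61, 3.19 and 3.30 CPM in uninjured cells and 27.2, 8.48 and 48.2 at 48 h, a log2 fold change of 3.23 ± 0.54. Every 48 h value of these MCM subunits was above every uninjured value, with replicate 3 highest and replicate 2 lowest. The other MCM subunits called, Mcm2, Mcm4 and Mcm6, rose by log2 fold changes of 1.27, 1.83 and 1.44. Mcm7 had 16.9, 21.6 and 22.7 CPM in uninjured cells and 27.7, 22.7 and 42.8 at 48 h, and it missed the threshold (0.62 ± 0.22, adjusted p = 0.0537, edgeR). Its 48 h replicate 2 was level with the highest uninjured library.

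The loaders and activators of the helicase differed in level and in spread. Cdc6, which loads MCM at origins, was at 0.130, 0.456 and 0.0508 CPM in uninjured cells and at 2.47, 0.287 and 5.21 at 48 h, so that replicate 2 lay inside the uninjured range. It was called (3.71 ± 1.04, adjusted p = 0.0204, edgeR), whereas Cdt1, its partner in loading, was not (0.71 ± 0.29, adjusted p = 0.0847, edgeR). Cdc45, which activates the loaded helicase, was at 0.803, 1.51 and 0.888 CPM in uninjured cells and at 4.26, 5.46 and 9.86 at 48 h. It was the 1 replication gene for which replicate 2 was not the lowest 48 h library. Gins2, a subunit of the GINS complex of the same helicase, went from 4.78, 3.51 and 1.78 to 15.3, 9.34 and 16 CPM, without overlap.

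All 6 genes of the fork, chromatin and nucleotide supply rose at 48 h, and none of their groups overlapped. Of all genes tested, 17.4% rose and 21.5% had every 48 h library above every uninjured library. Uhrf1, which maintains DNA methylation behind the fork, had 1.15, 0.842 and 1.04 CPM in uninjured cells and 16.6, 5.89 and 39.6 at 48 h. With 4.36 ± 0.61 (adjusted p = 0.00079, edgeR) it had the largest fitted change of the 16 replication genes and the smallest p of all members. Rrm2, the regulated subunit of ribonucleotide reductase, went from 2.54, 1.97 and 2.13 to 46.3, 7.04 and 29.3 CPM, and it was 1 of 2 replication genes that were higher in replicate 1 than in replicate 3. Its partner subunit Rrm1 rose less, from 10.0, 10.7 and 10.8 to 27.9, 14.9 and 33.0 CPM. Pcna, the sliding clamp, had the highest level per kb of exon of the class in each group, at 9.68 ± 0.762 CPM per kb in uninjured cells and 20.4 ± 7.07 at 48 h (SD, n = 3). Pcna values were 22.9, 21.6 and 25.2 CPM in uninjured cells and 56.7, 29.5 and 60.6 at 48 h, so its fold was small (1.09 ± 0.22) although its groups did not overlap. Tyms, which makes thymidylate, had the smallest called change of the class (0.85 ± 0.24), and Dtl, a substrate receptor of the ubiquitin ligase that removes Cdt1, rose by 3.77 ± 1.00 from at most 0.772 CPM.

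Among the cyclins, CDK and transcription factor of the mitosis class, 4 of 5 rose at 48 h, against 17.4% of all genes tested. Cdk1, the mitotic kinase, was at 0.347, 0.632 and 0.406 CPM in uninjured cells and at 17.6, 2.01 and 5.21 at 48 h, a log2 fold change of 4.19 ± 0.74 (adjusted p = 0.00184, edgeR). Its cyclin partner Ccnb1 went from 0.304, 0.176 and 0.228 to 13.4, 0.862 and 3.04 CPM. For both, each 48 h library was above each uninjured library, but replicate 1 was over 3 times as high as replicate 3. Ccna2, the cyclin of S phase and early mitosis, was at 0.673, 1.44 and 0.584 CPM in uninjured cells and at 26.9, 0 and 8.62 at 48 h. With replicate 2 below all uninjured libraries and the others above them, it was not called (3.77 ± 1.23, adjusted p = 0.0516, edgeR). Foxm1, the transcription factor of the G2 programme, had 18.2, 1.29 and 3.36 CPM at 48 h against at most 1.24 in uninjured cells.

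Checkpoint and mitotic kinases were at or under 1.72 CPM in every uninjured library. Bub1b, the checkpoint protein BubR1, went from 0.673, 0.176 and 0.254 to 9.99, 3.59 and 2.49 CPM (3.82 ± 0.67, adjusted p = 0.00175, edgeR), and every 48 h library was above every uninjured library. Bub1 had 2 counts over the 3 uninjured libraries and 132 at 48 h, a ratio of 162 with a 95% counting interval of 43.9 to 1350, but none of its 48 h counts came from replicate 2. Melk, a kinase of dividing cells, likewise had 3 uninjured counts and was at 6.45, 0 and 2.58 CPM at 48 h, a ratio of 140 (47.0 to 684). Aurkb, of the chromosomal passenger complex, went from 0.282, 0.351 and 0.228 to 8.81, 0 and 2.44 CPM. Plk1 had 0.782, 1.72 and 0.635 CPM in uninjured cells and 16.2, 0.575 and 1.98 at 48 h, and its change did not pass (2.61 ± 0.98, adjusted p = 0.0726, edgeR). Of the 8 genes in this role, among them the passenger protein gene Birc5, 7 were called, against 17.4% of all genes tested. The groups were apart for only 2, Bub1b and Ttk, near the 21.5% of all genes with every 48 h library above every uninjured library.

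None of the 3 kinetochore genes passed the test at 48 h, with Cenpa at 4.82, 0 and 0.599 CPM, Cenpe at 13.6, 1.44 and 4.70 and Cenpf at 19.6, 0.575 and 2.35. Their replicate 1 and replicate 3 values were all above the highest uninjured values of 0.406, 3.43 and 1.43 CPM, and their replicate 2 values were not. All 3 were higher at an unadjusted p under 0.05 (edgeR) and by DESeq2, and limma voom called none of them. Among spindle motors and midzone proteins 5 of 6 rose, against 17.4% of all genes tested. Kif11, the motor that separates the spindle poles, was at 1.06, 1.19 and 0.330 CPM in uninjured cells and at 16.2, 2.30 and 7.19 at 48 h. Kif23, a motor of the midzone, was at 10.7, 2.16 and 4.47 CPM at 48 h against at most 0.782 in uninjured cells. Kif20a, another midzone motor, was not called, with 21.1, 0 and 2.44 CPM at 48 h against 0.457 to 1.02. Prc1, which bundles midzone microtubules, had 23.6, 0 and 5.49 CPM at 48 h and rose (4.56 ± 1.28, adjusted p = 0.0276, edgeR). With no count in replicate 2 it could still be at up to 0.431 CPM there, above its lowest uninjured value.

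Cdc20, which activates the anaphase-promoting complex, rose from 1.67, 1.19 and 0.812 to 31.6, 3.45 and 3.78 CPM, while Ube2c, the complex's ubiquitin-conjugating enzyme, was at 11.2, 0.144 and 1.38 CPM and was not called. Mki67, the gene of the Ki-67 antigen (GRCm38 chr7:135689784-135716361), was at 3.67, 3.97 and 1.65 CPM in uninjured cells and at 98.1, 2.30 and 25.9 at 48 h. Top2a, the topoisomerase that untangles sister chromosomes, was at 1.82, 2.00 and 0.787 CPM in uninjured cells and at 40.1, 0.431 and 15.3 at 48 h. For these widely used division markers replicate 2 lay inside or below the uninjured range, whereas replicates 1 and 3 were far above it. Mki67 was called at an adjusted p of 0.0313 and Top2a at 0.0454 (edgeR), calls that held in 4 and 3 of 16 alternative settings. Without 48 h replicate 1 their adjusted p values were 0.0879 and 0.112 (edgeR), and Mki67 fell short in 12 settings in all.

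**Figure D2:**
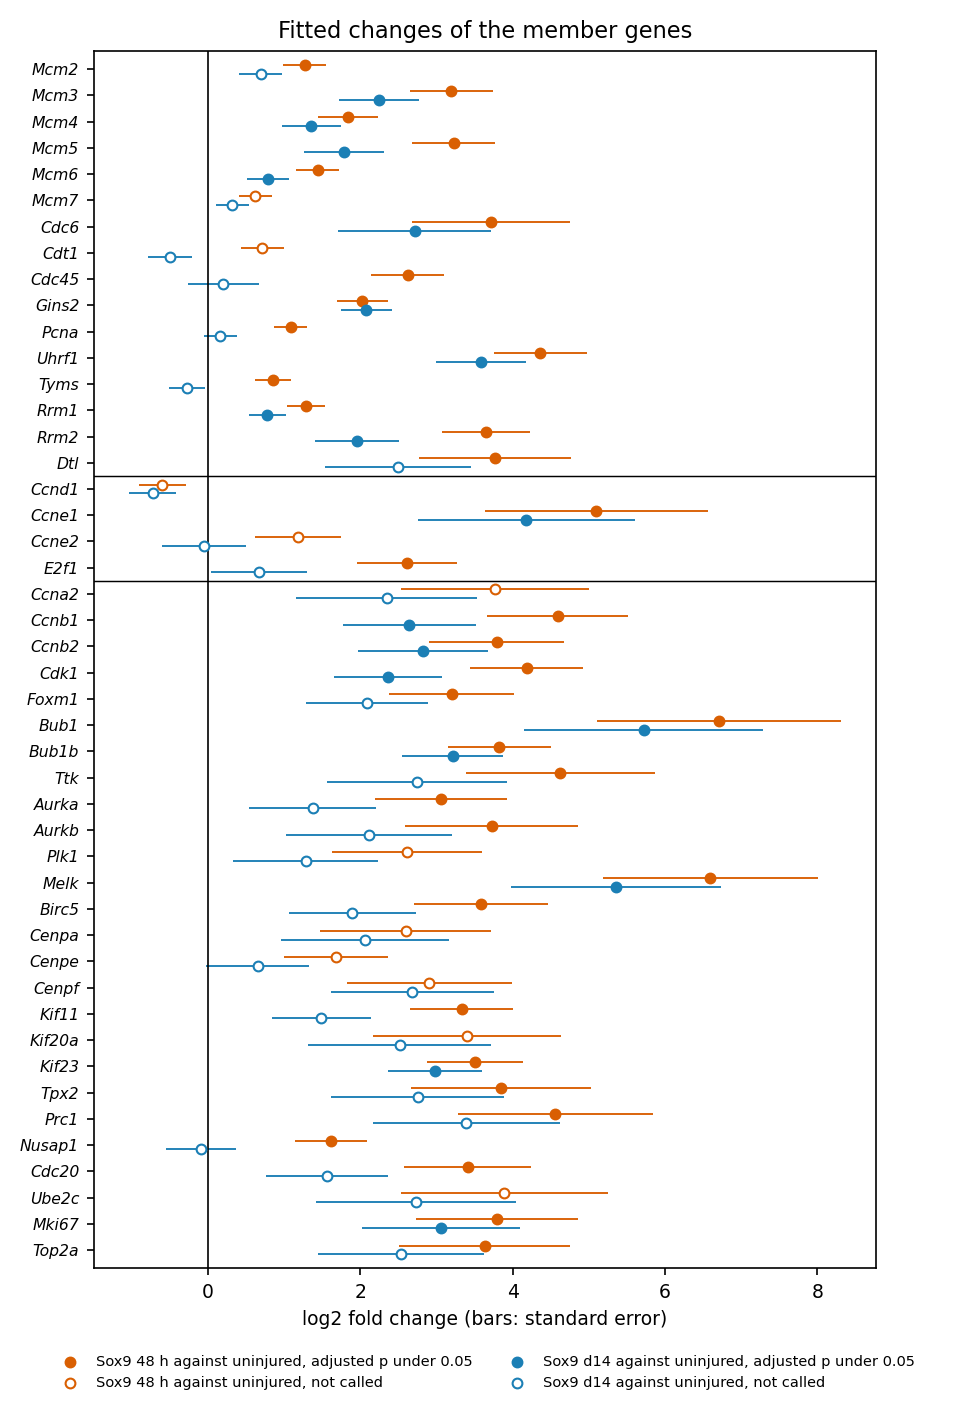
Points are fitted log2 fold changes of the 46 members at 48 h (orange) and d14 (blue) against uninjured cells, bars are standard errors, and filled points passed the adjusted p threshold of 0.05. At 48 h, 14 of 16 replication and 19 of 26 mitosis genes passed, with median changes of 1.93 and 3.68. Bar lengths vary within both classes, and the replication genes Cdc6 and Dtl have longer bars than the mitosis genes Cdk1 and Bub1b. Without 48 h replicate 1 the median changes at 48 h were 1.98 for replication and 2.25 for mitosis.

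Replicate by replicate, the classes did not move together at 48 h. Summed over the 16 genes, replication was at 358, 178 and 491 CPM in replicates 1, 2 and 3, all above the uninjured sums of 117, 118 and 120. Summed over the 26 genes, mitosis was at 491, 30.3 and 125 CPM, against 25.9, 23.2 and 15.4 in uninjured cells. Thus replicate 3 had the most replication RNA and replicate 1 the most mitosis RNA, and replicate 2 was lowest in both. The order held gene by gene, since replicate 3 was the highest 48 h library for 14 of 16 replication genes and replicate 1 for 26 of 26 mitosis genes. The ratio of replicate 1 to replicate 3 had a median of 0.605 over replication genes and 3.90 over mitosis genes (range 2.25 to 8.63), against 0.997 over all genes with counts in both. These ratios describe 2 libraries and carry no test.

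The balance of the classes was therefore unlike in the 3 libraries at 48 h. Per kb of exon, the replication sum over the mitosis sum was 0.866, 5.68 and 5.01 in replicates 1, 2 and 3. In uninjured cells it was 5.32, 5.79 and 8.50. Replicate 1 was the 1 library of the 9 in which the mitosis sum of the members exceeded their replication sum. The ratio in replicate 2 was inside the uninjured range and that in replicate 3 just under it. This crossing depends on the genes summed. In the lists of other pathway genes given below, the mitotic sum per kb exceeded the replication sum in replicate 1 (159 against 107) and in replicate 2 (80.6 against 71.7). It did not in replicate 3 (95.6 against 126).

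**Figure D3:**
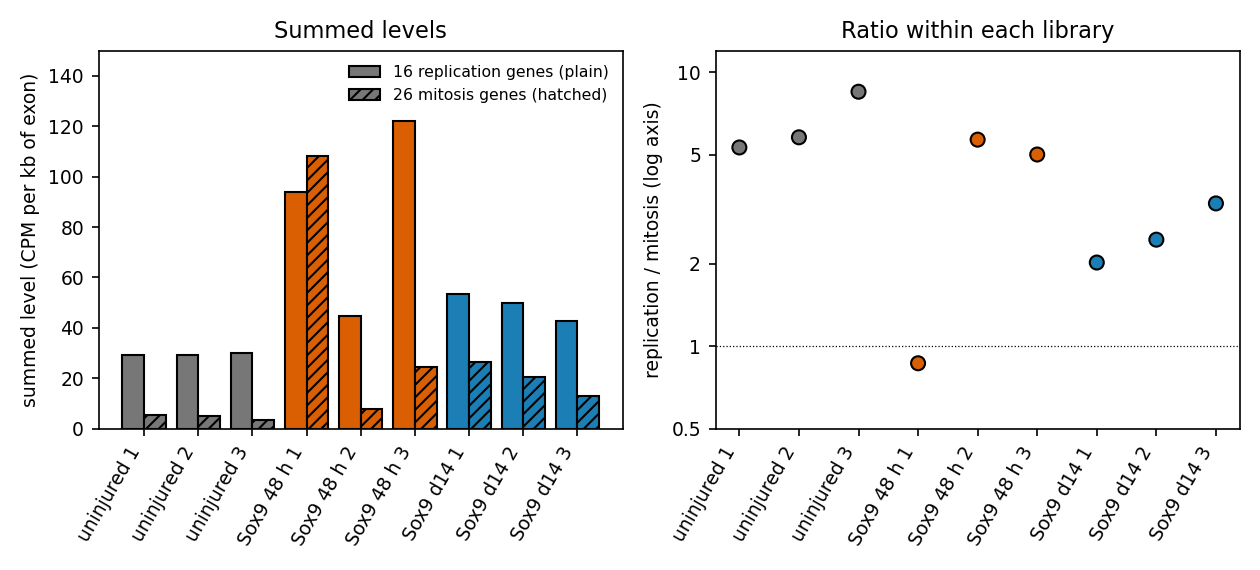
The left panel gives summed CPM per kb of exon of the 16 replication genes (plain bars) and the 26 mitosis genes (hatched bars) in each library, and the right panel gives their ratio on a log axis, with the dotted line at 1. At 48 h the ratio was 0.866 in replicate 1, below all other libraries, and 5.68 and 5.01 in replicates 2 and 3.

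Counted by gene, 12, 5 and 15 of the 16 replication genes reached at least 2 times the highest uninjured library in 48 h replicates 1, 2 and 3, where 15.5%, 13.4% and 16.3% of all tested genes did. For mitosis the counts were 26, 7 and 21 of 26. Simply above the highest uninjured library were 16, 14 and 16 replication and 26, 10 and 26 mitosis genes, where 38.4%, 37.8% and 39.9% of all genes were. In replicate 2 the 5 replication genes were Mcm3, Mcm5, Cdc45, Uhrf1 and Rrm2, and the 7 mitosis genes were Ccnb1, Ccnb2, Cdk1, Bub1b, Ttk, Kif23 and Cdc20. Another 8 mitosis genes were below their lowest uninjured library there (Ccna2, Aurkb, Plk1, Cenpa, Cenpf, Kif20a, Prc1 and Top2a). Depth bears on this, since 7 mitosis genes had no count in replicate 2, where 1 count is 0.144 CPM. For Ccna2 and Kif20a the limit of 0.431 CPM was still under the lowest uninjured values of 0.584 and 0.457 CPM, and for the other 5 it was above theirs.

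The number of called mitosis genes at 48 h turned on single libraries. It was 9 without 48 h replicate 1 and 26 without replicate 2, and 10 and 8 without uninjured replicates 2 and 3, while the replication count stayed at 11 to 16 whichever library was left out. In every setting tried, 11 replication genes (Mcm2, Mcm3, Mcm4, Mcm5, Mcm6, Cdc45, Gins2, Pcna, Uhrf1, Rrm1 and Rrm2) and 8 mitosis genes (Bub1, Bub1b, Ccnb1, Ccnb2, Cdk1, Kif11, Kif23 and Melk) were called wherever a value was given. For Bub1 and Melk this is a weaker statement. They were tested only in fits that included d14 libraries, and they had no count in 48 h replicate 2. With only the 2 groups fitted they had too few counts to be tested.

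Markers of other cells also differed between the 48 h libraries. The summed level of 8 endothelial markers was 689, 84.8 and 137 CPM in replicates 1, 2 and 3, against 74.5 to 148 in uninjured cells. All 8 were above the highest uninjured library in replicate 1, 1 of 8 in replicate 2 and 4 of 8 in replicate 3, with Pecam1 at 78.5, 6.90 and 15.3 CPM, Cdh5 at 57.8, 7.19 and 12.6, and Plvap at 196, 27.0 and 38.6. This is the order of the mitosis sum, and the part of endothelial RNA in it was not tested. The 10 macrophage and monocyte markers summed to 174, 107 and 364 CPM (28.3 to 35.0 in uninjured cells), with Csf1r at 23.0, 6.75 and 44.4 and Lyz2 at 91.1, 40.1 and 179. They had the order of the replication sum, replicate 3 highest and replicate 2 lowest, and their part was not tested either.

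The 7 neutrophil markers summed to 113, 211 and 343 CPM at 48 h against 2.80 to 8.0 in uninjured cells, with Cxcr2 at 12.0, 12.5 and 29.7 CPM. The 10 proximal tubule markers were at 11164, 5472 and 6999 CPM, below the uninjured 16615 to 18329 in all 3. The 4 thick ascending limb markers, all called higher at 48 h, were at 931, 745 and 890 CPM against 148 to 216, the 6 principal cell markers at 339, 286 and 322 against 55.8 to 78.4, and the 5 podocyte markers at 145, 32.3 and 65.9. Lymphocyte markers were at most 3.29 CPM in sum in any library, with Cd3e at 0 in uninjured replicate 2 and 48 h replicate 1. Fibroblast and pericyte markers were at 6.45, 1.72 and 4.52 CPM, with Pdgfrb at 0 in replicate 2. The order of the mitosis sum, replicate 1 then 3 then 2, was thus also that of the proximal tubule, thick ascending limb, principal cell, podocyte and fibroblast lists, with smaller differences in each, and their part was not tested. Sox9 was lowest in replicate 1, at 7.57, 15.1 and 22.1 CPM, which is not the order of the mitosis sum.

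**Figure D4:**
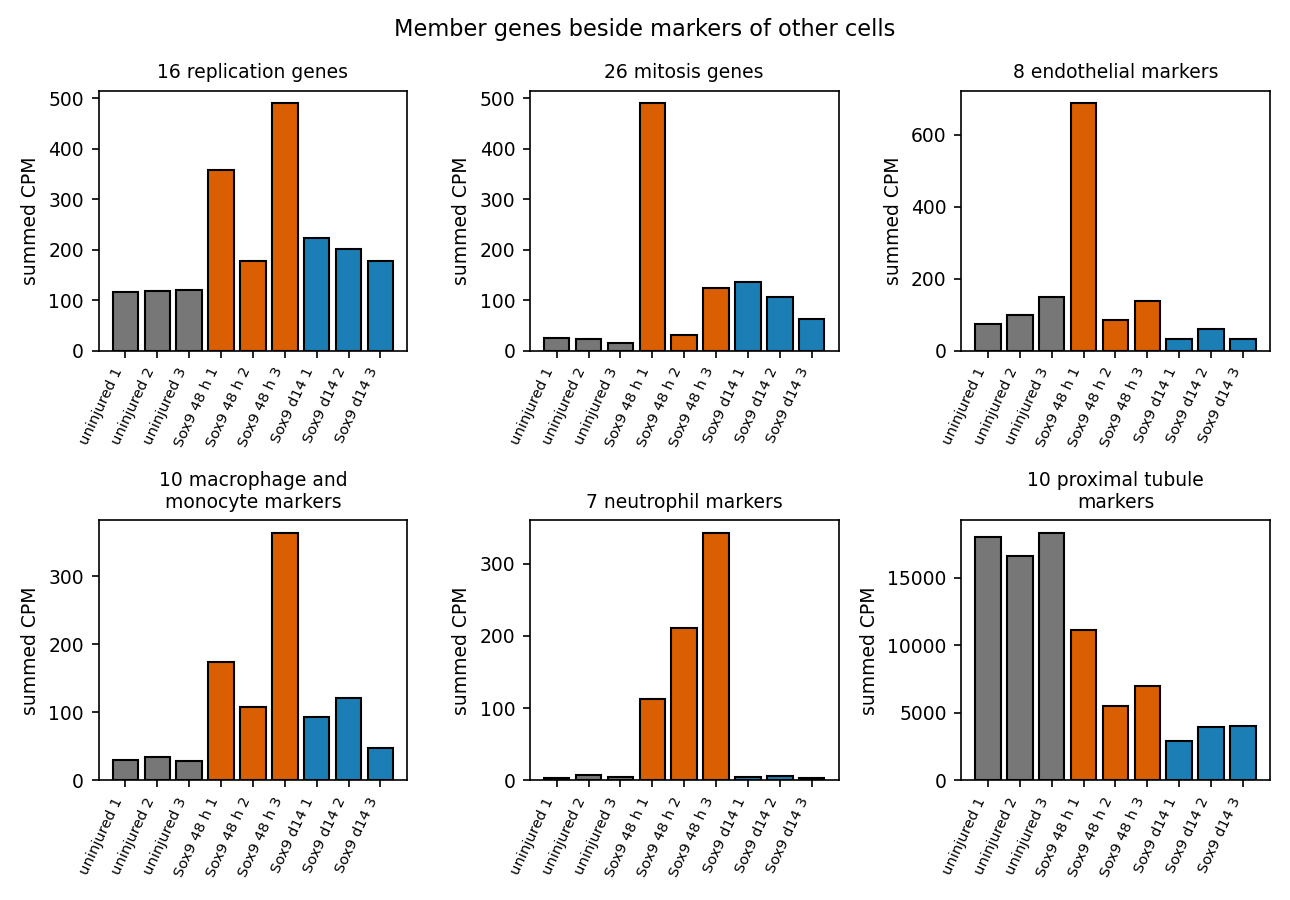
Bars are summed CPM in each library for both classes of members and for 4 lists of cell type markers, with a separate axis from 0 in each panel. Replicate 1 at 48 h stands out for mitosis genes (491 CPM) and for endothelial markers (689 CPM), and replicate 3 for replication genes (491 CPM) and macrophage markers (364 CPM). Among the 48 h libraries, replicate 1 was also highest for proximal tubule markers (11164 CPM) and replicate 3 for neutrophil markers (343 CPM).

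At d14, 9 of 16 replication genes, 8 of 26 mitosis genes and 1 of 4 G1/S regulators were higher than in uninjured cells, and none was lower. These 18 members (39.1%) compare with 25.1% of all genes tested (edgeR, adjusted p under 0.05). By class the shares were 56.2% of replication and 30.8% of mitosis genes, and the second is near that of all genes. At an unadjusted p under 0.05, 28 members were higher and 1 lower (Ccnd1). DESeq2 called Ccnd1 lower and limma voom called Cdt1 lower. The median log2 fold change was 1.07 for replication and 2.53 for mitosis genes, against 0.06 over all genes. All 3 d14 libraries lay above all uninjured libraries for 23 of 26 mitosis genes and 12 of 16 replication genes, where 34.4% of all genes did. Tyms and Ccnd1 were the 2 members with every d14 library below every uninjured library, as were 28.9% of all genes. This comparison and that of 48 h share the uninjured libraries.

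The d14 libraries were closer to each other than those at 48 h. Replication summed to 223, 201 and 178 CPM and mitosis to 137, 106 and 62.5, each above every uninjured sum. Replicate 1 was highest for 11 of 16 replication and 19 of 26 mitosis genes, so here both classes had the same order. The per-kb ratio of replication to mitosis was 2.02, 2.45 and 3.32, below the uninjured values of 5.32 to 8.50 in each library. In d14 replicates 1, 2 and 3, 23, 22 and 15 of the 26 mitosis genes reached at least 2 times the highest uninjured library, against 19%, 19.5% and 18.6% of all genes. For replication the counts were 8, 7 and 6 of 16. Simply above the highest uninjured library were 13, 13 and 12 replication and 25, 24 and 24 mitosis genes, where 44%, 43.6% and 43.7% of all genes were.

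Among replication genes at d14, Gins2 was at 16.1, 12.5 and 13.9 CPM against 1.78 to 4.78 in uninjured cells (2.08 ± 0.34, adjusted p = 0.000406, edgeR). Its log2 change from 48 h to d14 was 0.05 ± 0.32. Uhrf1 was at 15.4, 11.8 and 9.58 CPM (3.58 ± 0.60, adjusted p = 0.000884, edgeR), and Mcm3 at 7.57, 9.22 and 4.46 (2.24 ± 0.53). Mcm4, Mcm5, Mcm6, Cdc6, Rrm1 and Rrm2 were the other members of the class that rose, with log2 fold changes of 0.78 to 2.71. The other 7 genes of the class were not called. Pcna was at 25.8, 28.1 and 24.2 CPM against 21.6 to 25.2, Cdc45 at 0.951, 1.35 and 1.36 against 0.803 to 1.51, and Tyms at 8.59, 8.51 and 6.99 against 9.09 to 10.1.

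Among mitosis genes at d14, the 8 called were Ccnb1, Ccnb2, Cdk1, Bub1, Bub1b, Melk, Kif23 and Mki67. Bub1b was at 4.26, 3.52 and 2.80 CPM (3.21 ± 0.66, adjusted p = 0.00203, edgeR) and Kif23 at 5.21, 2.85 and 4.05 (2.98 ± 0.62), both far above their uninjured ranges. Bub1 had 108 counts against 2, a ratio of 68.0 (18.4 to 569), and Melk 116 against 3, a ratio of 48.7 (16.3 to 240). Mki67 was at 34.0, 28.3 and 14.9 CPM, every d14 value above the uninjured maximum of 3.97, and rose (3.06 ± 1.04, adjusted p = 0.0430, edgeR). Per kb of exon it had the highest mean level of the mitosis class at d14, 2.56 ± 0.976 CPM per kb (SD, n = 3). Prc1 (6.30, 4.99 and 1.96 CPM) and Top2a (13.5, 9.10 and 4.16) also lay above all uninjured libraries but missed the threshold, at adjusted p = 0.0505 and 0.0939 (edgeR). Nusap1, a spindle protein, was at 3.38, 3.40 and 2.29 CPM against 2.63 to 3.72.

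The endothelial markers that were high in 48 h replicate 1 were low at d14. They summed to 33.9, 61.2 and 31.4 CPM, below the uninjured 74.5 to 148 in every library, while the mitosis sums of 137, 106 and 62.5 CPM were above their own uninjured range of 15.4 to 25.9. Neutrophil markers, at 3.43 to 5.90 CPM, were inside the uninjured range. The macrophage and monocyte markers were at 93.8, 122 and 47.8 CPM, above the uninjured 28.3 to 35.0, and fibroblast and pericyte markers at 11, 21.5 and 12.4 CPM against 5.10 to 11.4. The part of these cells in the member genes at d14 was not tested. All 4 thick ascending limb markers rose, to a sum of 2939, 4663 and 5231 CPM against 148 to 216 in uninjured cells. Of the 6 principal cell markers 5 rose, and they summed to 565, 389 and 556 CPM against 55.8 to 78.4. The 10 proximal tubule markers summed to 2895, 3977 and 4059 CPM against 16615 to 18329. The part of these segments in the member genes was not tested either.

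The d14 counts also turned on single libraries. For replication, 3, 5 and 4 genes were called without uninjured replicates 1, 2 and 3 and 4 without d14 replicate 1. For mitosis, 5, 5 and 4 were called without those uninjured libraries and 4 without d14 replicate 1, but 14 and 19 without 48 h replicates 1 and 2, which are in neither group of this comparison. Leaving them out also changed the shared estimate of spread and the number of genes tested (16511 and 16469), and these were not separated. Gins2, Mcm3, Uhrf1, Bub1, Bub1b, Kif23 and Melk were called in every setting that gave a value.

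Between 48 h and d14, 5 replication genes, 2 mitosis genes and E2f1 fell, and no member rose. Time and tamoxifen schedule cannot be told apart here, so a fall or rise is a difference between differently labelled cell groups. The 8 genes are 17.4% of the members, near the 16.3% of all genes tested that were lower (edgeR, adjusted p under 0.05), so the count is no result about the members. By class the shares were 31.2% of replication and 7.69% of mitosis genes, and 16.8% of all genes were higher. At an unadjusted p under 0.05, 13 members were lower and 0 higher, and DESeq2 and limma voom called 0 higher. The median log2 fold change was -0.94 for replication and -1.16 for mitosis genes, against 0.05 over all genes. Every d14 library was below every 48 h library for 4 replication genes and 1 mitosis gene, against 20.6% of all genes. For 0 members was every d14 library above every 48 h library, against 26.7% of all genes.

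Cdc45 had the largest fall, from 4.26, 5.46 and 9.86 CPM at 48 h to 0.951, 1.35 and 1.36 at d14 (-2.42 ± 0.48, adjusted p = 0.0031, edgeR), and it was the 1 member called in every setting. Pcna fell from 56.7, 29.5 and 60.6 to 25.8, 28.1 and 24.2 CPM (-0.92 ± 0.22), Cdt1 by 1.21 on the log2 scale, Tyms by 1.13 and Rrm2 by 1.70. Of these 5 genes Rrm2 alone overlapped between the groups. The 2 mitosis genes were Kif11 (-1.84 ± 0.63) and Nusap1 (-1.71 ± 0.47). For the mitosis class the direction itself rested on 1 library. Without 48 h replicate 1 its median was 0.17 in place of -1.16, and the count of lower genes was 0. That count was also 0 without d14 replicate 3, 1 without uninjured replicates 1 or 2 or d14 replicates 1 or 2, and 9 without 48 h replicate 2. The size of the replication change rested on another library, since its median was -0.36 without 48 h replicate 3 in place of -0.94. It was -1.0 without 48 h replicate 1 and -1.27 without replicate 2, and the count of lower replication genes was 4, 11 and 4 without 48 h replicates 1, 2 and 3.

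The 4 regulators of the G1/S transition behaved unlike each other. Ccnd1, the cyclin that answers growth signals, was at 121, 216 and 157 CPM in uninjured cells, 62.5, 136 and 128 at 48 h and 113, 110 and 76.3 at d14. It was the 1 member with a negative fitted change at 48 h and was not called in any of the 3 comparisons. Ccne1, a cyclin of the G1/S step, was at 0.109, 0 and 0 CPM in uninjured cells, 1.63, 0 and 2.81 at 48 h and 0.458, 1.27 and 0.707 at d14, and it was called higher at both times. Ccne2, the other cyclin E, was called in none of the comparisons. E2f1, a transcription factor of replication genes, went from 1.41, 1.47 and 0.888 CPM in uninjured cells to 7.01, 1.72 and 14 CPM at 48 h, and it was at 2.46, 2.53 and 1.03 CPM on day 14. It rose at 48 h (2.61 ± 0.65, adjusted p = 0.0122, edgeR) and fell by 1.94 on the log2 scale from 48 h to d14, with the same order of 48 h replicates as most replication genes.

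Other genes of the pathway were taken from 4 lists without members. Of 36 tested genes of the replication machinery, 19 rose and 1 fell at 48 h, 10 rose and 3 fell at d14, and 8 fell from 48 h to d14. The shares higher were 52.8% at 48 h, against 17.4% of all genes, and 27.8% at d14, near the 25.1% of all genes. The shares lower were 2.78% at 48 h and 8.33% at d14, under the 11.7% and 20.7% of all genes. From 48 h to d14 the share lower was 22.2% against 16.3%. Timeless, a fork protection protein, was at 0.960 to 1.52 CPM in uninjured cells and 6.90, 6.47 and 10.7 at 48 h, and Pold1, the catalytic subunit of polymerase delta, at 4.10 to 5.41 and 10.9, 14.4 and 16. Pola1, of the priming polymerase, rose at both times (1.74 ± 0.27 and 1.52 ± 0.27). Tk1 and Rfc5 rose at 48 h and fell again by d14, by 2.17 and 1.14 on the log2 scale. The 1 lower at 48 h became 0 without uninjured replicate 3. The 3 lower at d14 became 1 without uninjured replicate 1 or 2 or d14 replicate 1 or 3. The 8 lower from 48 h to d14 became 5 without 48 h replicate 1 or 3 or d14 replicate 1 or 2, 4 without d14 replicate 3 and 14 without 48 h replicate 2.

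Of 44 tested genes of the mitotic machinery, 25 rose and 0 fell at 48 h (edgeR; 34 and 0 at an unadjusted p under 0.05, and 0 lower by DESeq2 and limma voom), 16 rose and 1 fell at d14, and 1 rose and 4 fell from 48 h to d14. The shares higher were 56.8% at 48 h (17.4% of all genes) and 36.4% at d14 (25.1%). The shares lower were 0% at 48 h (11.7% of all genes) and 2.27% at d14 (20.7%). From 48 h to d14, 9.09% were lower and 2.27% higher, under the 16.3% and 16.8% of all genes. Spc25, of the NDC80 complex of the kinetochore, was at 6.47 to 8.0 CPM in uninjured cells, 27.8, 48.4 and 27.6 at 48 h and 9.86, 6.29 and 7.35 at d14, so unlike the 26 members it was highest in replicate 2. Its partner Spc24 rose at 48 h (2.25 ± 0.35). Cdc25b, the phosphatase that activates CDK1, was at 1.89 to 2.6 CPM, then 10.2, 6.47 and 10.3, then 21.8, 27.0 and 28 at d14. Cdc25b was the 1 gene of the list that rose from 48 h to d14 (1.49 ± 0.22). Cks2, a CDK subunit, was at 22.4 to 26.1 CPM in uninjured cells, 30.4, 25.2 and 21.8 at 48 h and 6.76 to 7.60 at d14, and Ncaph, of condensin, rose at d14 (2.88 ± 0.75). The 48 h count of 25 was 9 without 48 h replicate 1 or uninjured replicate 3, and 13 without uninjured replicate 1 or 2. It was 16 without 48 h replicate 3. The d14 count of 16 was 7, 6 and 5 without uninjured replicates 1, 2 and 3, 7, 7 and 10 without d14 replicates 1, 2 and 3, and 25 without 48 h replicate 2. The 4 that fell from 48 h to d14 became 9 without 48 h replicate 2, the 1 that fell at d14 became 2 without 48 h replicate 1 or 2, and 1 gene fell at 48 h without 48 h replicate 1.

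Of 25 regulators of G1, E2F, RB and MuvB, 8 rose and 3 fell at 48 h, 4 rose and 3 fell at d14, and 1 rose and 2 fell from 48 h to d14. At 48 h these were 32% higher and 12% lower, against 17.4% and 11.7% of all genes. At d14 they were 16% and 12%, under the 25.1% and 20.7% of all genes, and from 48 h to d14 4% and 8%, under 16.8% and 16.3%. Wee1, the kinase that restrains CDK1, was at 3.27 to 7.69 CPM in uninjured cells, 19.3, 24.6 and 20.3 at 48 h and 17.1, 12.6 and 12.7 at d14. Ccnd2 rose at both times (2.27 ± 0.45 and 2.52 ± 0.45) and E2f3 likewise (1.40 ± 0.24 and 0.95 ± 0.23). Lin52, a subunit of MuvB, fell at both times, to 5.23 to 6.91 CPM at d14 from 13.9 to 16. Ccnd3, a D-type cyclin, was at 53.7, 55.6 and 47.0 CPM in uninjured cells, 68.4, 68.6 and 74.4 at 48 h and 38.0, 34.9 and 37.6 at d14. It rose at 48 h (0.44 ± 0.10), fell from 48 h to d14 (-0.94 ± 0.11) and was lower at d14 than in uninjured cells (-0.50 ± 0.10), with no overlap of groups. Tfdp2, an E2F partner, rose from 48 h to d14 (0.53 ± 0.11). With unscaled library sizes 1 gene of the list was lower at d14 than in uninjured cells, and from 48 h to d14 9 were higher and 0 lower (edgeR), where DESeq2 called 4 lower, limma voom 2, and 4 were lower with TMM at an unadjusted p under 0.05. Without uninjured replicate 3 the 48 h count of 8 was 4, and without 48 h replicate 3 it was 5. The 3 lower genes were 1 without uninjured replicate 1 or 3 or 48 h replicate 1. From 48 h to d14 the 1 higher gene became 2 without 48 h replicate 1, and the 2 lower became 1 without that library, uninjured replicate 1 or 3 or any d14 library.

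CDK inhibitors, the brakes of the cycle, were measured in the same libraries. Of 6 tested, 2 rose at 48 h (33.3%, against 17.4% of all genes) and 3 at d14 (50%, against 25.1%). By edgeR, DESeq2, limma voom or an unadjusted p under 0.05, 0 were lower than in uninjured cells. Cdkn1a (p21) was at 2.71, 3.62 and 3.35 CPM in uninjured cells, 16.8, 51.2 and 16 at 48 h and 26, 20.4 and 19.9 at d14. Its 48 h value was highest in replicate 2, which was the shallowest library and had the lowest sums of both member classes. A link between Cdkn1a and those sums was not tested. Cdkn2b (p15) was at no more than 0.102 CPM in uninjured cells, 1.51, 1.72 and 0.968 at 48 h and 7.43, 4.39 and 6.07 at d14, and it rose again from 48 h to d14 (2.11 ± 0.66, adjusted p = 0.0294, edgeR). Cdkn1b (p27) was higher at d14 by 0.43 ± 0.13, and Cdkn2c fell from 48 h to d14 by 0.96 on the log2 scale. Cdkn2a had too few counts to be tested. Between 48 h and d14, 2 of the 6 were higher (33.3%, against 16.8% of all genes) and 1 was lower (16.7%, near the 16.3% of all genes). From 48 h to d14 the 2 higher calls became 1 without 48 h replicate 1 or 3 or any d14 library, the 1 lower became 0 without 48 h replicate 1 or d14 replicate 2 or 3, and at 48 h 1 gene was lower without 48 h replicate 2.

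Some members share sequence with neighbours. Cdc45 overlaps Ufd1, Ccna2 overlaps Exosc9, Mcm7 overlaps Cops6 and Ap4m1, Nusap1 overlaps Oip5 and Kif20a overlaps Cdc23, each on the opposite strand. Further members also overlap genes of the opposite strand, among them Gins2, Cdc20, Prc1, Ube2c, Ccne2 and Ccnd1. No source used here states the strand setting of the counting, so reads of such pairs may not have been told apart.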

How the data were processed

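The table deposited by the authors holds unscaled expected counts, 1 whole number per gene and library. The tools listed in the submitters' processing notes, without roles, are R 3.6.3, DESeq2 1.26.0, RSEM 1.2.28, STAR 2.6.1 and bcl2fastq 2.20, beside mm10 and a human build. All gene identifiers are mouse, and mm10 (GRCm38) with GENCODE M21 was taken for exon lengths and positions. Reads that fit several genes are shared out by RSEM. All 92 spike-in sequences were at 0 counts and were not used.

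The analysis used edgeR 4.0.16 under R 4.3.3. The filterByExpr function (minimum count 10, minimum total 15) left 15519 genes. TMM scaling and a robust quasi-likelihood fit over all 9 libraries followed, with Benjamini-Hochberg adjustment over all genes tested and calls at 0.05. SE is the log2 fold change over the square root of F. The procedure was tested on simulated data for 48 h against uninjured cells, with 50 changed genes at each size of change. It called 26% and 42% of them at true log2 changes of -1 and 1, and 80% and 86% at -3 and 3, with 5 false calls. A change near 1 can therefore go uncalled. Ratios with 3 or fewer counts in a group carry exact 95% intervals. Intervals and floors of 3 counts cover counting error only. Alternatives used DESeq2 1.42.0 and limma 3.58.1.

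The members and all lists were chosen with earlier results of these data known. Members may all be named. Of each pathway list the 3 called genes with the smallest p per comparison are named (1 such gene is not reported here), and of markers the sums, the 2 most abundant and fixed defining genes. Promoters and motifs came from RefSeq by symbol. Replicates are biological replicates per the labels.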

Additional observations from a re-analysis of the deposited data

How the results depend on the processing

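Alternatives were DESeq2 size factors or unscaled library sizes in edgeR, no filter, the DESeq2 Wald test, limma voom with sample weights, a fit of only the 2 groups compared, a replicate block, and leaving out each library. Over the members, 1894 alternative values kept their side of the threshold, 182 lost the call and 123 gained it. The 19 mitosis genes higher at 48 h became 12 with only the 2 groups fitted, where Bub1, Melk and Aurkb of the 19 were not tested. At d14 against uninjured cells, 9 replication genes became 5 without the filter, limma voom added 1 lower gene, and 8 mitosis genes became 16 with unscaled library sizes, 16 with DESeq2 and 21 with only the 2 groups fitted. From 48 h to d14, 5 lower replication genes became 1 with unscaled sizes and 11 with limma voom, and 2 lower mitosis genes became 0 with unscaled sizes, 4 with DESeq2 and 1 with the replicate block. Unscaled sizes moved the median of all genes at d14 from 0.06 to 0.63 against uninjured cells and from 0.05 to 0.63 against 48 h, with member medians then of 1.64 and 3.11 (replication, mitosis) and -0.37 and -0.51. The mitosis median from 48 h to d14 was -0.72 with the replicate block and -0.74 with limma voom. Unscaled sizes also gave 21, 29 and 15 genes higher at d14 in place of 10, 16 and 4 in the replication, mitotic and G1 lists. The cause of the other shifts was not tested. Leaving out 1 library gave 11 to 16 replication and 8 to 26 mitosis genes higher at 48 h, 3 to 11 and 4 to 19 higher at d14, and 4 to 11 and 0 to 9 lower from 48 h to d14. Libraries share only a replicate number, with correlations of same-numbered deviations of -0.17 to 0.061. With the replicate block, 12 replication and 14 mitosis genes were higher at 48 h, 8 and 12 at d14, and 4 and 1 were lower from 48 h to d14. Bub1, Melk, Aurkb, Cenpa and Ccne1 at 48 h, and Ttk at d14 against uninjured cells, had too few counts to be tested with only the 2 groups fitted, and DESeq2 gave no adjusted p for Cdc20. Depth limits 48 h replicate 2 most.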
